A study of Mus musculus with 32 samples.

Results

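The 6 loci described here hold the mouse genes for secreted or membrane-bound signals that liver endothelial cells give to their neighbours: the bone morphogenetic proteins Bmp2 and Bmp6, the Wnt ligands Wnt2 and Wnt9b, the Wnt co-agonist Rspo3 and the Notch ligand Dll4. Open chromatin of liver endothelial cells was compared with that of Kupffer cells, which are macrophages living in the sinusoids, in windows of mm9 set around each gene. A peak was a member where its centre fell in a window, and which gene it belongs to was not determined in any window. The bounds were taken as given, and that each window holds its gene was not checked. The windows held 137 of the 229137 ATAC-seq peaks in the series, 84 of the 91453 endothelial peaks and 53 of the 137684 Kupffer peaks.

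Endothelial cells and Kupffer cells were isolated from male C57BL/6J mice on normal chow, and their open DNA was cut and tagged by a transposase. The labels give 32 libraries in 8 groups of 4 replicates. In each cell type these are mice with a double knockout of REV-ERB a and b, nuclear receptors that repress genes in the circadian cycle, at zeitgeber times ZT10 and ZT22, and WT mice at the same times. The series describes the knockout as one of adult hepatocytes, which are neighbours of the cells profiled; its promoter or delivery is not given in the sources used here.

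The files hold 1 list of peaks per cell type, marked by name as nucleosome-free, with positions alone. Since a peak carries neither height, p-value nor library of origin, differences by genotype or time are not analysed here, replicate error is unknown and no test between groups was made. A peak is called endothelial-only or Kupffer-only where it shares no base with a peak of the other list, and shared where it overlaps one by at least 1 bp. Depth is unknown, so the lack of a call in a list does not show closed chromatin. The loci of marker genes of either cell type were not analysed here, so the isolated cells were not checked against their defining markers.

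In the liver, endothelial cells line the sinusoids and act on hepatocytes through ligands of this kind. BMP2 and BMP6 from endothelial cells signal through SMAD proteins in hepatocytes and drive expression of hepcidin, the hormone that limits iron uptake. WNT2 and WNT9B from endothelial cells near the central vein activate beta-catenin in neighbouring hepatocytes, and RSPO3 strengthens that signal by holding Wnt receptors at the cell surface; together they set the metabolic zones of the lobule. DLL4 on endothelial cells activates Notch receptors on adjacent cells and restrains vessel sprouting.

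The promoters of 4 of the 6 genes are given in the RefSeq promoter table (GRCm38.p6); it has no entry for Bmp2 or Rspo3. They are shown because they are the stretches where transcription of these ligands starts. The 250 bases before the start are printed 5′ to 3′ on the strand of the gene, with matches to the motifs searched in capitals. These positions are on GRCm38.p6 and cannot be set against the mm9 positions of the peaks, so whether a peak covers a promoter was not determined.
Bmp6, chr13:38345466-38345715, plus strand: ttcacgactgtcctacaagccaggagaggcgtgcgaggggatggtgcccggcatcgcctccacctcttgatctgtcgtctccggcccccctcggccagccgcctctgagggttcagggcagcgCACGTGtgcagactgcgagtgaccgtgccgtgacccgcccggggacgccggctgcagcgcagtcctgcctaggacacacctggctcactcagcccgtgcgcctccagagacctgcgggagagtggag
Wnt2, chr6:18030446-18030695, minus strand: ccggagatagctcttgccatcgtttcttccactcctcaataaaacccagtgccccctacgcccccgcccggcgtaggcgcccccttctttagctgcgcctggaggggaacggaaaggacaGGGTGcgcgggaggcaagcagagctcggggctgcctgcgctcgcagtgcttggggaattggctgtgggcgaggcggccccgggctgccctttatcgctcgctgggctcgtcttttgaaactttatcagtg
Wnt9b, chr11:103749822-103750071, minus strand: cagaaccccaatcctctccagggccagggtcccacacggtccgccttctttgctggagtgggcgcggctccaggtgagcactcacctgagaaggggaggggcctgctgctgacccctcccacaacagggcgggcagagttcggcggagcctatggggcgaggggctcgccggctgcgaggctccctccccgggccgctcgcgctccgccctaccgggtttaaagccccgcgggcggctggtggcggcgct
Dll4, chr2:119325534-119325783, plus strand: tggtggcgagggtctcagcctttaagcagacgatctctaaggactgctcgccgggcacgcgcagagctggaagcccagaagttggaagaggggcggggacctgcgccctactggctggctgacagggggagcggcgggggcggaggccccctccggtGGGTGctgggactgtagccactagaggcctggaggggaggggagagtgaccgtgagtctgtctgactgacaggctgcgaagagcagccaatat

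All 4 promoters were rich in G and C. The GC content of these 250 bases was 68.8% at Bmp6, 63.6% at Wnt2, 72% at Wnt9b and 65.6% at Dll4, against a median of 52.4% over 32817 promoters of the table. The ratio of observed to predicted CpG was 0.745 at Bmp6, 0.791 at Wnt2, 0.679 at Wnt9b and 0.557 at Dll4, against a median of 0.373.

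These promoters were searched on both strands for 10 motifs. CGGAAGT stood for ETS factors, which act in endothelial cells. GAGGAAG stood for the macrophage factor PU.1 and shares the letters GGAAG with the ETS motif. AGATAA stood for GATA factors and ATTGT for SOX factors. TGANTCA stood for AP-1. CACGTG is the E-box bound by the clock factors CLOCK and BMAL1. AGGTCA is the core of the element bound by ROR and REV-ERB receptors. TGGGAA stood for RBPJ, the DNA-binding partner of Notch. CACCC stood for KLF factors, which respond to blood flow in endothelium. The last was the motif of the TATA box. The search took in 50 bases after the start, which are not printed, and found 2 motifs at Bmp6, 1 at Wnt2, 1 at Dll4 and 0 at Wnt9b. The E-box of Bmp6 runs from base 124 to base 129 of the printed sequence, and 7.15% of the 32817 promoters hold one. The other matches in the printed bases were to the KLF motif, which 57.5% of promoters hold. They run from base 121 to base 125 at Wnt2 and from base 158 to base 162 at Dll4. The second motif of Bmp6 was found only with the bases after the start and is not identified here. A match is a run of letters and was not tested for binding, and a motif not found is only missing from this window.

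Endothelial-only peaks outnumbered Kupffer-only peaks when the 6 windows were summed, whereas the whole lists lean the other way. The windows held 54 endothelial-only and 24 Kupffer-only peaks, so that 69.2% of restricted peaks were endothelial-only (95% exact binomial interval 57.8% to 79.2%). Over the whole lists that share was 31.2%. Of the endothelial peaks in the windows 64.3% were endothelial-only (53.1% to 74.4%), against 41.7% of the whole list, and 30 were shared. Of the Kupffer peaks 45.3% were Kupffer-only (31.6% to 59.6%), against 60.9%, and 29 were shared. Per 100 kb the windows held 7.20 endothelial-only and 3.20 Kupffer-only peaks, against 1.45 and 3.18 over chromosomes 1 to 19 and X, up to the last peak. Shared endothelial peaks were denser in the windows too, at 4 against 2.02 per 100 kb. The whole span includes stretches without genes, whereas the windows were set around genes. These intervals take each peak as an independent draw and hold counting error alone, with no spread between mice.

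**Figure D1:**
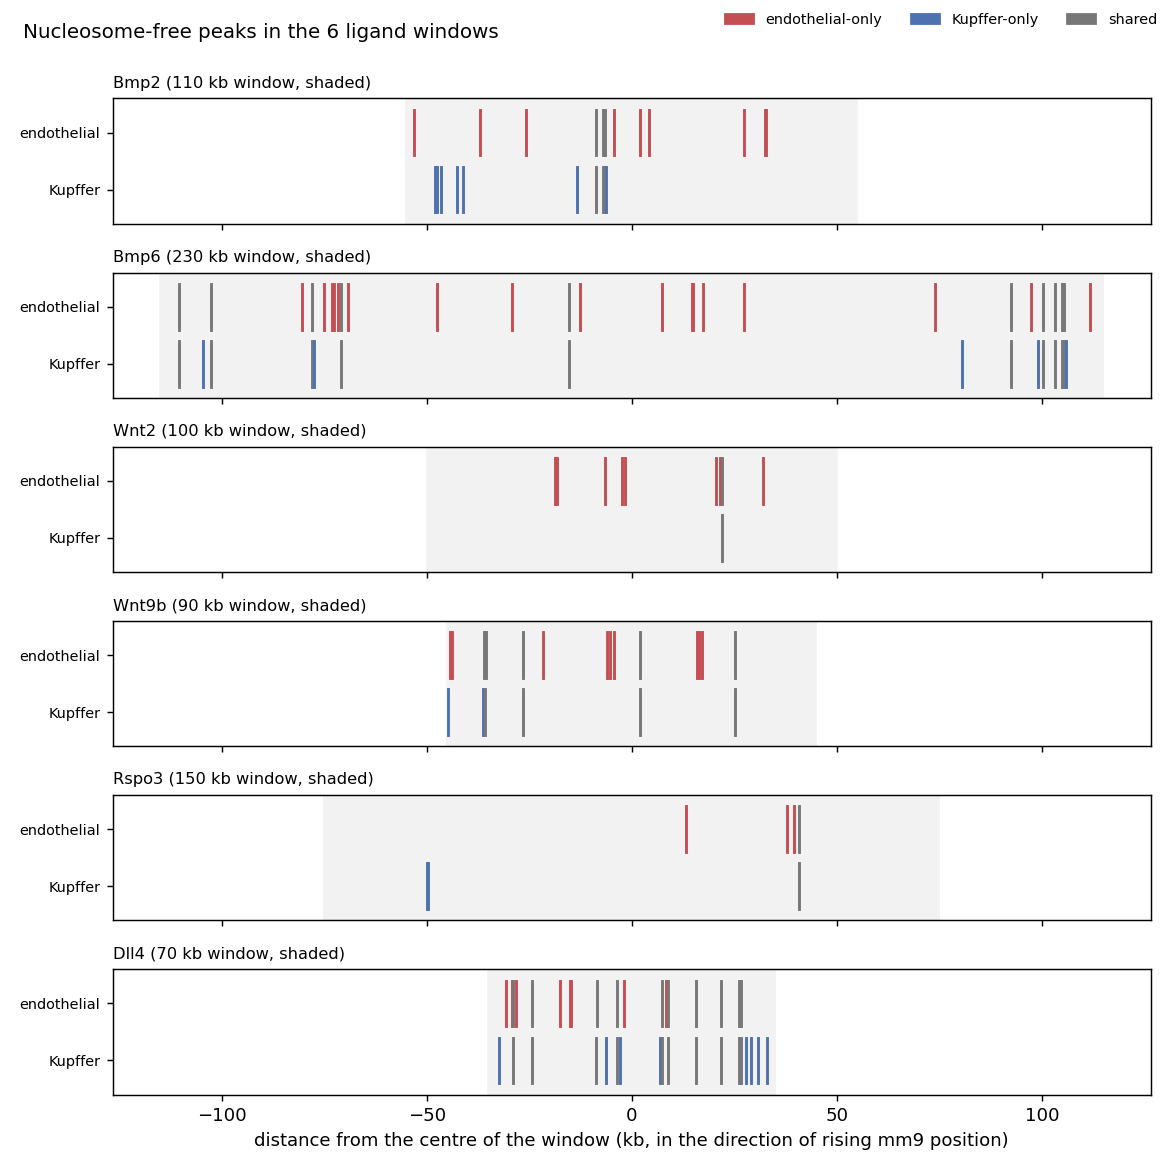
Positions of all 137 peaks in the 6 windows, with the endothelial list in the upper row and the Kupffer list in the lower row of each panel; the x axis is the distance from the centre of the window in kb, and ticks mark peak centres and are not drawn to the width of the peak. Wnt2 has no blue (Kupffer-only) tick, and in Bmp2, Bmp6 and Wnt2 long stretches hold red (endothelial-only) ticks alone.

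The loci were not alike in this. Wnt2 had 8 endothelial-only and 0 Kupffer-only peaks, Wnt9b had 9 and 2, Bmp6 had 17 and 5, Bmp2 had 9 and 7, Rspo3 had 3 and 2, and Dll4 had 8 and 8. The endothelial-only share of restricted peaks was 100% at Wnt2 (63.1% to 100%), 81.8% at Wnt9b (48.2% to 97.7%) and 77.3% at Bmp6 (54.6% to 92.2%), with intervals above the 31.2% of the whole lists. These intervals count close peaks separately. With peaks of 1 kind within 1 kb counted once, the counts were 5 and 0 at Wnt2, 4 and 2 at Wnt9b and 14 and 5 at Bmp6. Intervals for these smaller counts were not computed, so a share above the whole lists is not shown for them, least of all at Wnt9b. It was 60% at Rspo3 (14.7% to 94.7%), 56.2% at Bmp2 (29.9% to 80.2%) and 50.0% at Dll4 (24.7% to 75.3%), with intervals that take in 31.2%. The intervals of all 6 loci overlap one another. Such overlap does not show that 2 loci are alike, and differences between loci were not tested.

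**Figure D2:**
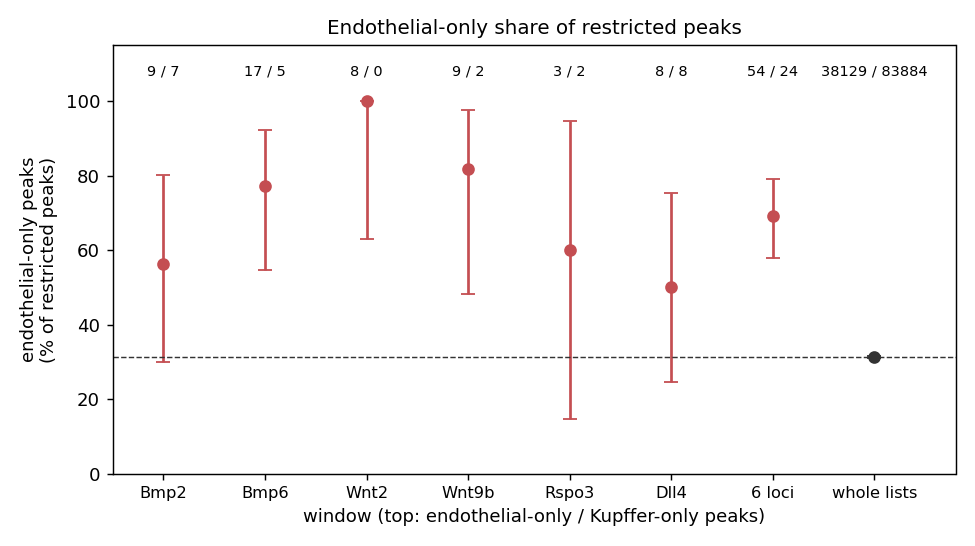
Endothelial-only peaks as a percentage of restricted peaks (endothelial-only plus Kupffer-only) in each window, in the 6 loci together and in the whole lists; bars are 95% exact binomial intervals and the dashed line is the whole-list share of 31.2%. The intervals for Bmp6, Wnt2, Wnt9b and the 6 loci together lie above the line, and those for Bmp2, Rspo3 and Dll4 cross it.

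Each window was also ranked among all non-overlapping tiles of its own length that held a peak. At least as many endothelial-only peaks as in the window were found in 2.28% of 70 kb tiles for Dll4, 2.57% of 90 kb tiles for Wnt9b, 2.68% of 230 kb tiles for Bmp6, 4.13% of 110 kb tiles for Bmp2 and 4.84% of 100 kb tiles for Wnt2. Rspo3 did not stand out, since 40.9% of 150 kb tiles held 3 or more. An excess of endothelial-only over Kupffer-only peaks at least as large as that of the window was rarer for Wnt2, with 1.24% of tiles for its excess of 8, for Bmp6, with 1.25% for 12, and for Wnt9b, with 1.6% for 7. It was common for the other loci: 14.9% of tiles for the excess of 2 at Bmp2, 27.3% for that of 1 at Rspo3 and 38.7% for the even balance at Dll4. Dll4 had many peaks of each kind: 14.8% of tiles held 8 or more Kupffer-only peaks, and 2.42% held 10 or more shared endothelial peaks. Kupffer-only counts as high as in the window were found in 31.9% of tiles for Bmp2, 56.7% for Bmp6, 63.7% for Wnt9b and 68.9% for Rspo3. None of these Kupffer-only counts stood out from the tiles.

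Bmp2 encodes a BMP ligand that signals to hepatocytes through SMAD proteins, and its window (chr2:133330001-133440000, mm9) held Kupffer peaks on its lower side and none on its upper side (lower and upper refer to the mm9 position). It held 12 endothelial and 10 Kupffer peaks, of which 3 in each list were shared. The 3 shared endothelial peaks lay together in 2.22 kb (chr2:133376276-133378499). The widest of them, at chr2:133377804-133378166, was 363 bp wide and lay wholly inside a Kupffer peak of 471 bp. Nearer the lower edge 5 Kupffer-only peaks followed one another within 7.01 kb (chr2:133336891-133343904), in a stretch of 15.8 kb with no endothelial peak. Above the shared peaks 6 endothelial-only peaks ran from chr2:133380511 to 133417957, and no Kupffer peak was called for 61.7 kb. That stretch ended at chr2:133440553, just above the window. The widest endothelial-only peak, 342 bp, lay near the lower edge of the window (chr2:133331833-133332174), 4.72 kb from the nearest Kupffer peak. Nearest to each other were the endothelial-only peak at chr2:133380511-133380837 and the Kupffer-only peak at chr2:133378690-133378888, 1622 bp apart. In the gene table on GRCm38.p6 no gene overlaps Bmp2, and its coding neighbours are Fermt1 and Hao1.

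Bmp6 encodes the BMP ligand whose endothelial expression follows iron load, and its window was the longest (chr13:38400001-38630000). It held 27 endothelial and 15 Kupffer peaks, with 10 shared in each list. Shared peaks sat towards the ends: 4 of the shared endothelial peaks lay in the lowest 25% of the window and 5 in the highest 25%. The 50% between them held 8 endothelial-only peaks, 0 Kupffer-only peaks and 1 shared endothelial peak, at chr13:38499533-38499808, which at 276 bp was the widest shared endothelial peak of the locus. Of the restricted peaks 14 in a row were endothelial-only, over 149 kb (chr13:38439914-38588930). Within that run, 7 endothelial-only peaks lay in a stretch of 95.8 kb without a Kupffer peak of either kind. A tighter group of 5 endothelial-only peaks between chr13:38439914 and 38446061 enclosed a shared peak. The widest endothelial-only peak, at chr13:38467375-38467703, was 329 bp wide and 23.2 kb from a Kupffer peak, and the most remote, at chr13:38542315-38542465, was 42.6 kb away. Kupffer-only peaks never followed one another without an endothelial or shared peak between them; the widest, 244 bp, lay at chr13:38595495-38595738. The closest endothelial-only and Kupffer-only peaks were 1617 bp apart, near the upper end. In the gene table Bmp6 overlaps Txndc5, which encodes a protein disulfide isomerase, and the lncRNA 4930579J19Rik, and which gene a peak belongs to was not determined.

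Wnt2, a ligand of the beta-catenin pathway made by endothelial cells near the central vein, had the window with the fewest Kupffer peaks (chr6:17910001-18010000). Of 9 endothelial peaks 8 were endothelial-only, and the only Kupffer peak was shared. A count of 0 Kupffer-only peaks allows up to 3 in a window of this length if peaks fall independently, which was not tested. The mean tile of 100 kb held 4.73 and the median tile 3. The share of tiles with 0 Kupffer-only peaks was not computed, so whether that count is unusual by itself is not shown. An endothelial-only count at least as high together with no Kupffer-only peak was found in 0.52% of such tiles. This was not particular to Wnt2. With each window's own 2 counts as limits, the share was 0.547% for Bmp6, 0.77% for Wnt9b, 1.87% for Dll4, 2.2% for Bmp2 and 9.76% for Rspo3. It was low even for the even balance of Dll4, so it does not measure a lean to endothelial-only peaks. The endothelial-only peaks came in small groups: 2 at chr6:17941181-17941953, 1 at chr6:17953190-17953525, 2 at chr6:17957493-17958411, 2 at chr6:17980366-17981601 and 1 at chr6:17992025-17992175. The third group from the lower side and those below it lay 23.3 to 40.4 kb from the Kupffer peak, and the widest of the 8, at chr6:17953190-17953525, was 336 bp wide. The shared site at chr6:17981781-17982025 adjoined the fourth group; the Kupffer peak there began 0.140 kb from the nearest endothelial-only peak, and the centres of the pair were 19 bp apart. The lowest 31.2 kb of the window held no peak of either list. The 7 endothelial-only peaks below the Kupffer peak lay in a stretch of 89.1 kb without one. That stretch began at chr6:17892668, below the window, and 71.7 kb of it lay in the window. Coding neighbours in the gene table are St7 and Asz1.

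Wnt9b, the second Wnt ligand of the endothelium near the central vein, had 14 endothelial and 6 Kupffer peaks (chr11:103550001-103640000). Both Kupffer-only peaks lay at the lower end, in a span of 8.81 kb, 0.075 and 0.195 kb from the nearest endothelial peak. The first, at chr11:103549990-103550188, straddled the edge of the window and was the widest Kupffer-only peak of the locus at 199 bp; it was 305 bp from the endothelial-only peak at chr11:103550494-103550757. Above them, 7 endothelial-only peaks followed without a Kupffer-only peak between them over 39.1 kb (chr11:103573199-103612335). They formed 2 groups of 3, at chr11:103588873-103590886 and chr11:103610870-103612335, beside a single peak, and the widest peak of the locus that was endothelial-only, 277 bp, closed the lower group. In the 28.3 kb between neighbouring Kupffer peaks that holds the lower group there were 4 endothelial-only peaks. A Kupffer peak of 526 bp, the widest of all 53, overlapped 2 separate endothelial peaks of 225 and 215 bp, which is why 5 endothelial but only 4 Kupffer peaks count as shared here. The widest shared endothelial peak, 355 bp at chr11:103568411-103568765, contained a Kupffer peak of the most frequent width in the lists, 0.151 kb. In the gene table Wnt9b overlaps Wnt3, another Wnt ligand, and which of the 2 genes a peak serves cannot be read from its position.

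Rspo3 encodes an R-spondin that keeps Wnt receptors from being degraded, and its window was sparse (chr10:29140001-29290000). It held 4 endothelial and 3 Kupffer peaks in 150 kb. The 3 endothelial-only peaks and the shared endothelial peak lay within 27.7 kb (chr10:29228143-29255879). Of these, 2 endothelial-only peaks, at chr10:29252751-29252947 and chr10:29254426-29254576, were 2.74 and 1.11 kb from the Kupffer peak of the shared site, and the other lay 27.4 kb from that peak. The shared endothelial peak of 355 bp, at chr10:29255525-29255879, was the widest peak of the locus and contained a Kupffer peak of the smallest common width. The 2 Kupffer-only peaks lay side by side at chr10:29164985-29165479 and the nearer was 62.7 kb from the nearest endothelial peak. With 5 restricted peaks, neither cell type can be said to prevail at this locus. In the gene table no gene overlaps Rspo3.

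Dll4, the Notch ligand of sprouting and arterial endothelium, had the shortest and most densely occupied window (chr2:119120001-119190000). It held 18 endothelial and 18 Kupffer peaks, with 8 restricted and 10 shared in each list, or 11.4 restricted peaks of each kind and 14.3 shared endothelial peaks per 100 kb. More than 50% of its endothelial peaks were shared, 55.6% (30.8% to 78.5%), close to the 58.3% of the whole list. The kinds were not mixed evenly along the window. Of the 8 endothelial-only peaks 6 came first among the restricted peaks from chr2:119124207 to 119140336, after a single Kupffer-only peak, and none lay above chr2:119163399. Of the 8 Kupffer-only peaks 4 closed the window without an endothelial peak between them (chr2:119182764-119188197). Between these ends, 5 shared endothelial peaks followed one another over 17.9 kb (chr2:119163715-119181647). The widest shared endothelial peak, 384 bp at chr2:119146285-119146668, was also the widest endothelial peak of all 6 loci. The widest endothelial-only peak, 250 bp at chr2:119152958-119153207, lay 736 bp from the Kupffer-only peak at chr2:119152046-119152221, the closest pair of the locus, and the widest Kupffer-only peak was 276 bp (chr2:119122600-119122875). In the gene table Dll4 overlaps the lncRNA Gm14207, and its coding neighbours are Vps18 and Chac1.

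The restricted peaks also differed in how far they lay from the other list. The median distance from an endothelial-only peak to the nearest Kupffer peak was 6.46 kb over the 54 peaks of the windows, against 3.67 kb over all endothelial-only peaks of the genome. By locus it was 23.7 kb at Wnt2, 10.2 kb at Bmp2, 7.05 kb at Wnt9b, 5.52 kb at Bmp6, 2.74 kb at Rspo3 and 1.03 kb at Dll4. At Wnt2 the distances ran from 0.140 to 40.4 kb and at Bmp6 from 0.607 to 42.6 kb, so that the loci overlap. Over 10 kb from any Kupffer peak lay 18 of the 54 or 33.3% (21.1% to 47.5%), against 29.4% of the whole list; they were 7 at Bmp6, 5 at Bmp2, 5 at Wnt2 and 1 at Rspo3. At Dll4 and Wnt9b there were none. The 24 Kupffer-only peaks had a median distance of 2.17 kb to the nearest endothelial peak, against 4.81 kb in the genome. Of these 24, 2 or 8.33% (1.03% to 27%), both at Rspo3, were over 10 kb away, against 31.8% of all Kupffer-only peaks. These distances depend on the density of peaks in a window as well as on their kind, and were not tested.

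**Figure D3:**
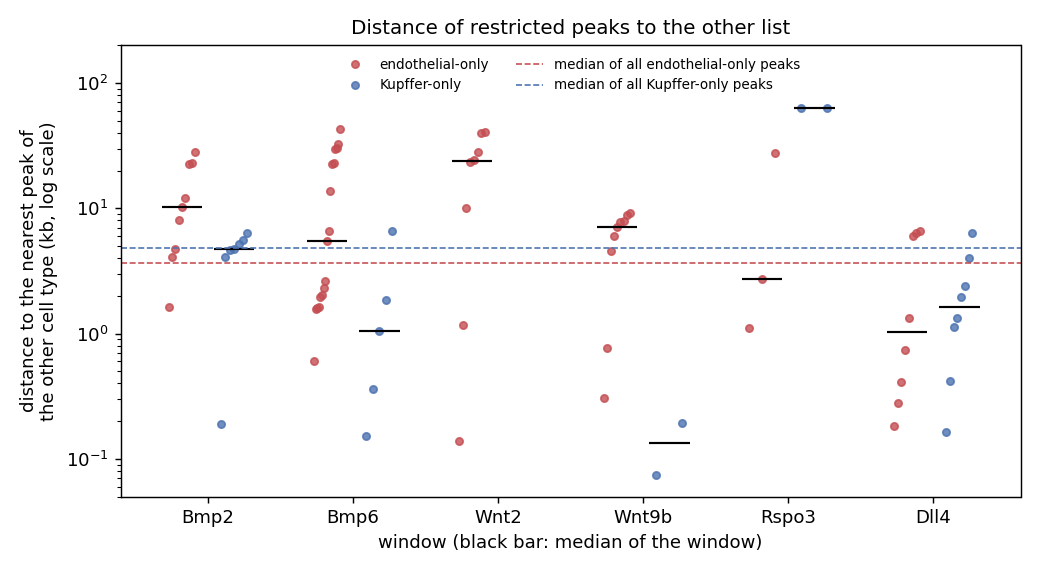
Distance from each endothelial-only (left of each pair) and Kupffer-only peak (right) to the nearest peak of the other cell type, in kb on a log axis, by window; black bars are medians of the window and dashed lines the medians of all endothelial-only (3.67 kb) and all Kupffer-only peaks (4.81 kb). The endothelial-only medians of Wnt2, Bmp2, Wnt9b and Bmp6 lie above the red line and those of Rspo3 and Dll4 below it.

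The endothelial-only peaks of these loci were about as wide as others. Their median width was 184 bp (0.151 to 0.342 kb), against 171 bp for all endothelial-only peaks. Of the 54, 24 or 44.4% (30.9% to 58.6%) had the most frequent width of 0.151 kb, against 44.6%. The whole lists also hold narrower peaks, down to 57 bp among endothelial-only and 30 bp among Kupffer-only peaks. Shared endothelial peaks had a median of 215 bp in the windows and 210 bp in the whole list. Kupffer-only peaks had a median of 200 bp, against 194 bp. Shared Kupffer peaks differed more, with a median of 181 bp against 207 bp. Of the 29, 13 or 44.8% (26.4% to 64.3%) had the most frequent width, against 23.9% of all shared Kupffer peaks. In base pairs, endothelial-only peaks covered 10739 and Kupffer-only peaks 4671 of the 750 kb. The 30 shared endothelial peaks had their centres a median of 24.8 bp from those of their Kupffer partners (1 to 131.5 bp), and 9 lay wholly inside the partner.

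The windows held 54 endothelial-only and 24 Kupffer-only peaks, against 48 and 41 in flanks as long as the window on each side, a share of 53.9% in the flanks (43% to 64.6%). That interval overlaps the one of the windows (57.8% to 79.2%) and lies above the 31.2% of the whole lists. Bmp6 had 17 endothelial-only and 5 Kupffer-only peaks in its window, against 13 and 17 in both flanks. Wnt2 had 8 and 0 in its window, against 9 and 1 in its flanks, so that Kupffer-only peaks were scarce on either side of this window too. At Bmp2 the lower flank had the same counts as the window, 9 and 7. Summed over the loci, and with bins that run past the edges of the shorter windows, the 50 kb below and above the centre held 25 and 20 endothelial-only and 15 and 5 Kupffer-only peaks. Outwards from 50 to 200 kb above the centre, the bins held 10 and 4, 7 and 7, then 10 and 5, endothelial-only first. Over the same distances below, they held 18 and 11, 10 and 10, then 7 and 14. The lean was thus not confined to the centre, and the 2 sides differed. The bin with the most Kupffer-only peaks, from 400 to 350 kb below the centre, held 7 and 37. Of those 37 Kupffer-only peaks, 16 lay below Wnt2 and 14 below Wnt9b.

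**Figure D4:**
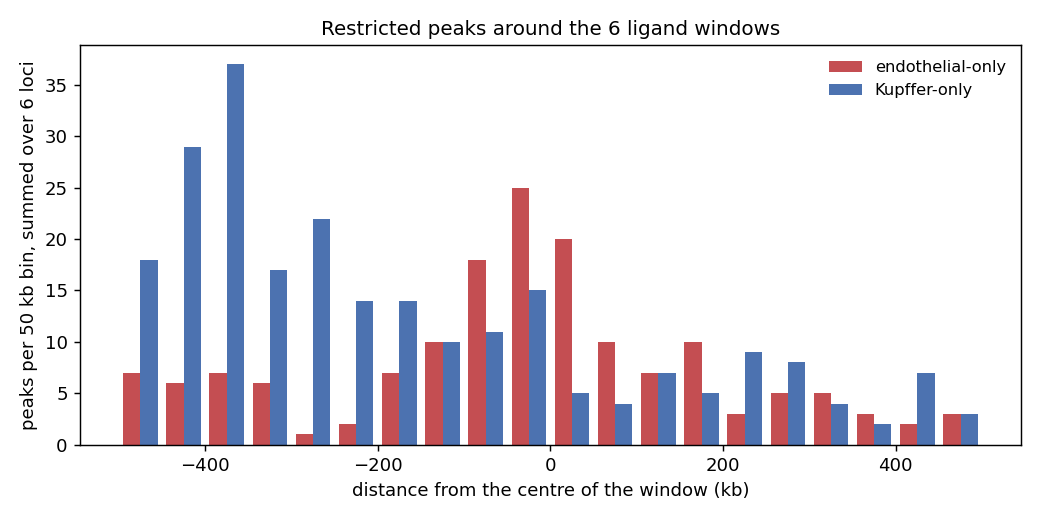
Endothelial-only (red) and Kupffer-only (blue) peaks in bins of 50 kb by distance from the centre of the window, out to 500 kb and summed over the 6 loci; bars are counts with no replicate. Red bars are highest at 25 and 20 on either side of the centre, and blue bars reach 37 at 400 to 350 kb below it.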

How the data were processed

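Per the labels' protocols, isolated endothelial or Kupffer cells were transposed with digitonin and the fragments amplified; the submitters' processing notes name Bowtie, HOMER and mm9, without versions. The deposited lists hold positions alone (chromosome, start and end; the unit is a base position), 1 list per cell type, and the sources used here do not tell how the authors combined the 16 libraries of each cell type, which peak threshold they set or whether they shifted reads for the transposase. Depth is therefore unknown.

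Window bounds were taken as given on mm9, with no mm9 annotation to place genes or promoters in them; RefSeq tables on GRCm38.p6 gave names, neighbours and promoter sequences for 4 of 6 genes. The windows, members and lists were chosen with earlier results of these data known. Positions count from 1. Overlaps came from NumPy 2.4.6 in Python 3.11.15 and gave the same shared counts as bedtools 2.31.1; the procedure was tested on simulated data. Intervals are exact Clopper-Pearson (SciPy 1.17.1). Tiles covered 20 chromosomes. The peaks named in each locus are the widest of each kind, the longest runs and the closest pair of opposite kinds; other peaks were named after seeing their positions. Tests with p-values were left out because the lists give no replicates. Alternatives covered the overlap, peak width, close peaks and window bounds. Other genes of these pathways were not analysed here, since no mm9 annotation was used.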

Additional observations from a re-analysis of the deposited data

How the results depend on the processing

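The endothelial-only share of restricted peaks in the 6 loci stayed above that of the whole lists in each of 8 other ways of counting, between 62.9% and 86.5%, while the share of the whole lists ran from 27.7% to 33.9%. 1 of these ways, counting any overlap with the window, gave the same counts as the main one and so adds no support. With peaks of 1 kind within 1 kb counted once, the share was 65.6% in the loci and 33.1% in the whole lists. Leaving out 1 locus at a time, a choice made after the data were seen, gave 65.7% without Wnt2 to 74.2% without Dll4. Narrowing each window by 25% on each side gave the highest share, 86.5%, with 32 endothelial-only, 5 Kupffer-only, 11 shared endothelial and 11 shared Kupffer peaks. Widening by 50% on each side gave 83, 49, 50 and 49 of these. Without peaks of the most frequent width there were 34 endothelial-only, 16 shared endothelial and 15 shared Kupffer peaks. In the wider 50% of each list there were 29, 11 and 10. Shared Kupffer peaks numbered 19 without the Bmp6 window and 19 without the Dll4 window. These counts changed because fewer or more peaks or bases were taken in. By locus, endothelial-only peaks outnumbered Kupffer-only peaks in all 8 ways at Bmp2, Bmp6, Wnt2 and Wnt9b, in 7 at Rspo3 and in 2 at Dll4. At Wnt9b the lead was only 4 against 2 with close peaks counted once. Counting all tiles, empty ones included, gave 1.41% for Dll4 and 29.6% for Rspo3 in place of 2.28% and 40.9%. Without the 50 bases after the start, Bmp6 held 1 of the motifs in place of 2. Over the 244 alternative values computed, 163 changed by at most 1.5 times (counts) or stayed inside the exact interval (shares), and 81 did not. The values for any overlap with the window, all equal to the main ones, are among the 163. No paired analysis was possible because each cell type has a single list without values for its libraries, and no replicate could be left out. Unknown depth limits any statement on a peak that was not called.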
